A study of Mus musculus with 9 samples.

Results

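Differentiated myotubes were compared with freshly isolated satellite cells of mouse skeletal muscle, the start and the end of myogenic differentiation in culture. The comparison covers the autosomal genes with a normalized read count of 10 or more in at least 3 of the 6 libraries of these stages, which are 16008 of the 45706 genes of the table and of its 40935 autosomal genes. Of the 16008 genes, 11674 reached 10 in all 6 libraries, 1478 reached it in all 3 fresh libraries and in none of the myotubes, and 751 in all 3 myotube libraries and in none of the fresh ones.

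The mice were wild-type C57Bl6 animals aged 12 to 20 weeks, and each stage has 3 samples, each from another animal. Whether an animal gave cells to more than 1 stage is not stated. The fresh cells were taken without culture. The myotubes had been grown for at least 3 days in medium with 20% FCS and human FGF-2, a mitogen of myoblasts, at 2.5 ng/ml, and then kept for 6 days in 2% horse serum, which withdraws growth factors, and the labels give their stage as differentiating. A further 3 libraries, of proliferating cells in the first medium, bring the study to 9, entered the fit and are given beside the other values. The cultures hold any cells that did not fuse as well as the myotubes.

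The word count below stands for the authors' normalized read count of a gene, scaled across libraries before deposit and then rounded. Counts summed to between 20111379 and 26209153 in the fresh and between 19454082 and 20768064 in the myotube libraries, and the reads behind them were estimated at 12.0 to 19.4 M and 22.0 to 22.8 M. Pearson's r of the log2 counts over these genes was 0.930 to 0.979 among the fresh libraries, 0.989 to 0.991 among the myotubes and 0.600 to 0.654 between the stages. Fresh library 1 stood furthest from the others: the non-coding gene Gm26917 took 22.2% of its counts, against 10.6% and 11.2% in the other fresh libraries and 2.88% to 3.36% in the myotubes. It was also the shallowest, at an estimated 12.03 M reads against 19.35 and 19.28 M in fresh libraries 2 and 3. A read in it stood for an estimated 2.179 counts, against 1.053 and 1.043, so its low values are coarser. It was the highest of the 3 fresh libraries in 40.5% of the genes and the lowest in 41.2%, and values that move by over 1.5-fold without a library are given below without it.

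The stages also differed in sex-linked transcripts. Xist, the RNA of the inactive X chromosome of females, was at 28464, 38044 and 38186 in the fresh libraries and at 12696, 10966 and 11043 in the proliferating ones, but at 2, 1 and 3 in the myotubes. The Y-linked genes Kdm5d, Uty, Ddx3y and Eif2s3y lay between 0 and 3 in every fresh and proliferating library and between 1313 and 3599 in every myotube library. Libraries with such opposite values do not come from the same animal, so fresh and myotube libraries shared none. The labels give no sex, so stage and sex cannot be told apart in this comparison. The proliferating libraries, whose Xist and Y-linked values are on the side of the fresh cells, are given beside part of the genes, and where they are not given nothing is said of the step at which a gene changed. In these bulk samples fewer cells of a type and less RNA per cell cannot be told apart either.

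Satellite cells are muscle stem cells that lie beneath the basal lamina of the fibre and rest outside the cell cycle under Notch signalling until injury. After activation they express MyoD, divide, and then withdraw from the cycle as myogenin and MEF2 factors switch on the genes of the contractile apparatus. The cells fuse into multinucleated myotubes, whose sarcomeres first contain embryonic and perinatal isoforms, with adult fibre isoforms replacing them later. Isolation itself is known to induce immediate early genes in these cells, so freshly isolated cells are not the same as cells at rest in the muscle.

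The counts of the 5 marker genes differed between the stages by more than 1000-fold or were listed at 0 in one of them. Mylpf, the fast regulatory myosin light chain (chr7:127208890-127214298), Casq2, a calsequestrin that stores calcium in the sarcoplasmic reticulum (chr3:102086415-102146514), and Myh8, the perinatal myosin heavy chain (chr11:67277124-67308634), mark the myotubes. Tnxb, the matrix glycoprotein tenascin X (chr17:34670535-34719815), and Rbpjl, a relative of the Notch effector RBPJ (chr2:164403141-164415448), mark the fresh cells. Their promoters are shown with those of skeletal actin Acta1 and of the embryonic acetylcholine receptor subunit Chrng, as genes of the contractile filament and of the synapse that rose with the first 3. The starts of Mylpf and Chrng in RefSeq lie 2718 and 1154 bases from the gene starts in GENCODE. Each sequence holds the 250 bases before a RefSeq start site (GRCm38.p6), 5′ to 3′ on the strand of the gene, with matches to 6 motifs in capitals.

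Myh8, chr11:67276874-67277123, plus strand: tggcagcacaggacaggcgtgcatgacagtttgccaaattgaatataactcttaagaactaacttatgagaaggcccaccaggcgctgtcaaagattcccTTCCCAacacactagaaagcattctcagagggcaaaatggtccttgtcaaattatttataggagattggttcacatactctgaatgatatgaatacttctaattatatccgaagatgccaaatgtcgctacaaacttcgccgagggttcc
Mylpf, chr7:127211358-127211607, plus strand: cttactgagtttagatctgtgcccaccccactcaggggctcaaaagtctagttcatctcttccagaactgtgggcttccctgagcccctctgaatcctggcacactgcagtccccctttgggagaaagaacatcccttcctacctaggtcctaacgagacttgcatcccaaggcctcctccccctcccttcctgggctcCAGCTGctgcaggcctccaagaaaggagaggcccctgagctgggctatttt
Casq2, chr3:102086165-102086414, plus strand: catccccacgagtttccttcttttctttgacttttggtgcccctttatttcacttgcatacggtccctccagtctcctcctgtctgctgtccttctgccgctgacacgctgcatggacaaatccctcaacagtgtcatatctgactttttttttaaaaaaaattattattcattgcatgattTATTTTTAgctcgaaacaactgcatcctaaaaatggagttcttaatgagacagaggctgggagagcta
Acta1, chr8:123894776-123895025, minus strand: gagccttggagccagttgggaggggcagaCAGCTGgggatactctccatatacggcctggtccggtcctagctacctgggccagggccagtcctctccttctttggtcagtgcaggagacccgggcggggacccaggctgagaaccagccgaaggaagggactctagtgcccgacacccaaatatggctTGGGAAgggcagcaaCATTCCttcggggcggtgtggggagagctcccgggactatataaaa
Chrng, chr1:87205561-87205810, plus strand: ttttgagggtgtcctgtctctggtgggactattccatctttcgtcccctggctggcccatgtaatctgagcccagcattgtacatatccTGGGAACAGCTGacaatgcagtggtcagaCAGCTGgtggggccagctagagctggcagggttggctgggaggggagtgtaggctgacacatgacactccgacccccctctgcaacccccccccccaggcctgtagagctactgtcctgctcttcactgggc
Tnxb, chr17:34670285-34670534, plus strand: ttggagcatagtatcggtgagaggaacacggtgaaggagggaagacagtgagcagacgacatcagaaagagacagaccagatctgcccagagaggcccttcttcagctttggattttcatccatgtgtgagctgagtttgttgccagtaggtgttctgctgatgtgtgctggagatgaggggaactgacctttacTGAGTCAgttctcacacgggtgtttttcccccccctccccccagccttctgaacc
Rbpjl, chr2:164402944-164403193, plus strand: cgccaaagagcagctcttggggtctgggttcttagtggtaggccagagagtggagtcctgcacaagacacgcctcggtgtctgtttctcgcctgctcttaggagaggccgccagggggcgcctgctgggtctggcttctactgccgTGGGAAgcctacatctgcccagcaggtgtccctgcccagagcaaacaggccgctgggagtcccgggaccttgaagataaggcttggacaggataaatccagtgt

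Both strands were searched for the E-box CAGCTG bound by MyoD and myogenin, the MEF2 core TAAAAATA, the MCAT motif CATTCC of TEAD factors, the AP-1 motif TGACTCA, the RBPJ motif TGGGAA and the heat shock pair GAANNTTC. Mylpf held the E-box 51 to 46 bases before its start, Chrng held it at 155 to 150 and again at 132 to 127, and Acta1 at 221 to 216 with an MCAT motif at 46 to 41. Casq2 held the MEF2 core at 68 to 61 and Tnxb an AP-1 motif at 55 to 49. Rbpjl and Myh8 held the RBPJ letters alone, at 104 to 99 and at 150 to 145, and in Chrng the RBPJ letters directly abut the first E-box.

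The motifs were then counted in the promoters of the 200 called genes with the largest rise and the 200 with the largest fall, of which 140 and 125 had a promoter in the table. The E-box was present in 43 of 140 promoters of the largest rises (30.7%) and in 21 of 125 of the largest falls (16.8%), beside 12.5% of the 10450 promoters of all the compared genes and 12.8% of all 27025 promoters. For the MEF2 core the shares were 6.43% among the rises and 0 of 125 among the falls, beside 1.25% of the compared genes and 2.5% of all promoters. AP-1 letters were in 8.0% of the promoters of the largest falls and 4.29% of the largest rises, beside 3.04% and 4.43%. The MCAT motif was in 15.7% of the rises and 10.4% of the falls, beside 10.7% and 12.6%, and the RBPJ letters in 22.1% and 25.6%, beside 20.4% and 21.5%. The heat shock pair was in 4.29% and 4.0%, beside 4.97% and 6.79%. These shares describe letters in a fixed window, and neither a match nor its absence was tested for binding.

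Myh8 was at 13, 1 and 8 in the fresh, at 23, 231 and 99 in the proliferating and at 53732, 45773 and 58801 in the myotube libraries, a log2 change from fresh cells to myotubes of 13.02 ± 0.82 (SE; 12.19 without fresh library 2). All log2 changes are differences of log2(count + 1) between myotubes and fresh cells, and they understate or depend on that 1 where a stage is near 0. Mylpf was at 57, 44 and 2 in the fresh and at 140872, 89869 and 141671 in the myotube libraries (12.58 ± 0.99), and the change ranged from 11.22 without fresh library 3 to 13.35 without fresh library 1. Every myotube library lay more than 1000 times above every fresh one for both myosin genes.

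Casq2 was at 0, 6 and 24 in the fresh and at 34945, 28945 and 33727 in the myotube libraries (12.50 ± 1.08). This change was 11.26 without fresh library 1 and 13.58 without fresh library 3. In the other direction, Tnxb was at 24577, 18478 and 16419 in the fresh and at 13, 4 and 5 in the myotube libraries (-11.35 ± 0.36), and it was already at 15, 14 and 19 in proliferating cells. Rbpjl was at 2033, 2227 and 1936 in the fresh libraries, at 1, 1 and 2 in proliferating cells and listed at 0 in all 3 myotube libraries. The adjusted p of these 5 genes, which limma gave, as throughout, with the Benjamini-Hochberg method over 16631 genes, ranged from 1.72e-09 for Rbpjl to 1.97e-06 for Casq2.

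Between the stages 6560 of the 16008 genes rose (41.0%) and 6172 fell (38.6%) at an adjusted p below 0.05. Over all 16631 genes tested, sex chromosomes included, 79.4% were called, 41.0% higher and 38.3% lower. Each count of a gene list below is read against these shares. The minimum fixed the direction of genes that reached 10 in 1 stage alone. Besides those given with their lists, in myotubes these were 2 proteasome and atrophy, 2 chromatin, 1 chaperone, 1 fusion and 1 costamere gene. In fresh cells they were 1 fatty acid oxidation, 1 imprinted, 1 chromatin and 1 clock gene. Changes of at least 4-fold were called for 3090 genes upward and 3122 downward, and changes of at least 256-fold for 99 and 50. The median log2 change was 0.10 with quartiles at -1.50 and 1.56. This median and the balance of rises and falls depend on the scaling of the counts. For 1072 genes the 95% confidence interval lay within 1.5-fold, and 3276 genes were not called. Protein-coding genes rose in 45.7% and fell in 35.9%, whereas genes annotated as antisense rose in 13.1% and fell in 58.2%, and sense intronic transcripts rose in 9.18% and fell in 72.4%. The strand setting of the authors' counting is not given, so antisense and overlapping genes are uncertain.

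**Figure D1:**
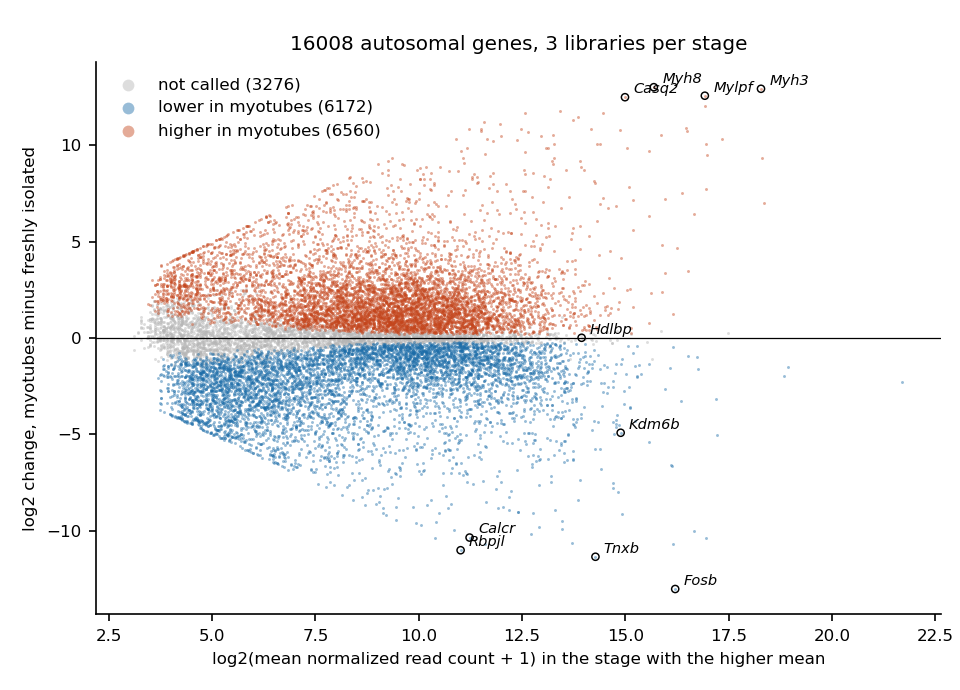
Log2 change from freshly isolated cells to myotubes (vertical axis) against log2 of the mean count plus 1 in the stage with the higher mean (horizontal axis), 1 point per gene for 16008 genes, colored by call. Myh8, Mylpf, Casq2 and Myh3 lie above 12 and Fosb and Tnxb below -11, while Hdlbp, at means of 15566 and 15719, lies at 0.02.

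The scatter of all compared genes shows changes of both signs among low and high counts. The ranking that follows left out numbered gene models, clone names, pseudogenes, small RNA genes and antisense genes. The genes with the largest rise after Myh8, Myh3, Mylpf and Casq2 were Myl1, an alkali myosin light chain, Mybph, a myosin-binding protein, and Dusp27, an atypical phosphatase family member of muscle. Next came Murc, a caveolar protein, Lmod3, a leiomodin of the actin filament, and Myom3, a protein of the M-band. Myl1 went from 35, 22 and 28 to 131293, 93051 and 148794 (12.05 ± 0.68), and Myom3 from 4, 7 and 3 to 14182, 12017 and 14917 (11.30 ± 0.44). The largest falls, after Fosb, Tnxb and Rbpjl, were in Dpt, the matrix protein dermatopontin, Hspa1a, an inducible heat shock protein, Itih5, Slc10a6, Hmcn2, a hemicentin, Calcr, the calcitonin receptor, and Chrdl2, a BMP antagonist. Hmcn2 stood at 155528, 101991 and 119091 in fresh cells and at 94, 90 and 95 in myotubes (-10.36 ± 0.21), with 109, 73 and 61 in proliferating cells. Chrdl2 stood at 6756, 7260 and 6259 and at 5, 4 and 6 (-10.15 ± 0.26), and Slc10a6, at 1205, 1285 and 1536 in fresh and 0, 1 and 0 in proliferating cells, was listed at 0 in all myotubes.

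**Figure D2:**
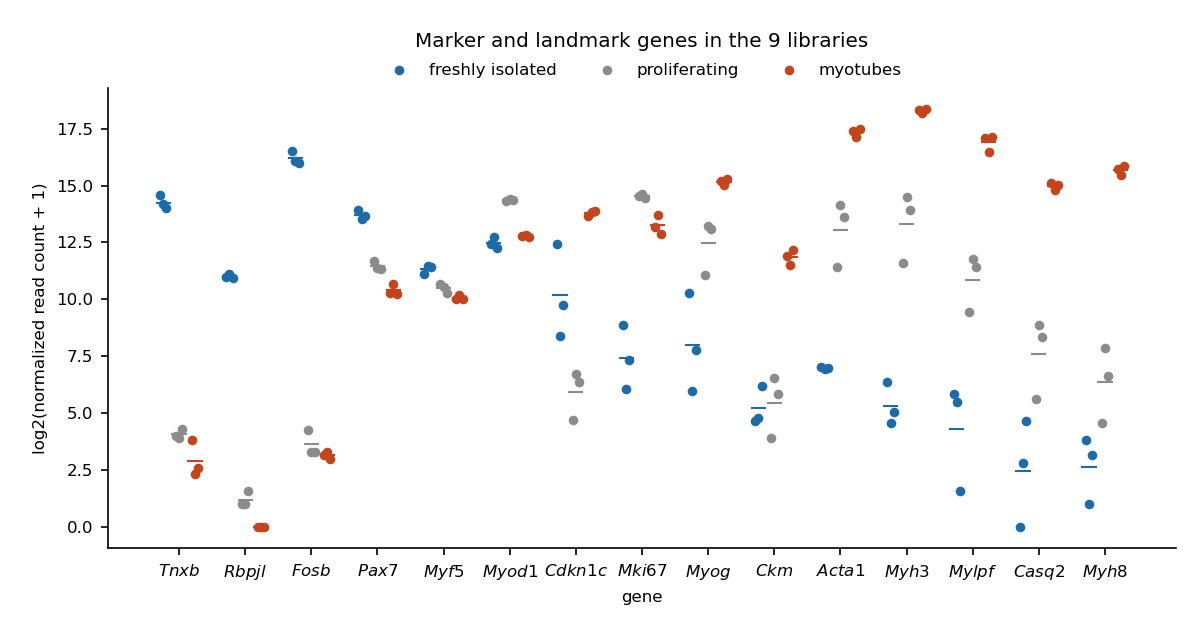
Log2 of the count plus 1 of 15 marker and landmark genes (horizontal axis) in the 9 libraries, with a point for each library and a line for the mean of each stage. Fosb, Tnxb and Rbpjl are separate from both cultured stages in every fresh library, Myod1 and Mki67 are highest in proliferating cells, and the sarcomere genes on the right are highest in every myotube library.

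Of the 22 lineage transcription factors compared, 9 rose and 9 fell, with a median log2 change of -0.12. These counts lie near the shares over all genes tested, 41.0% higher and 38.3% lower. Here and below, a gene that is neither among the largest nor among the smallest changes of its list was picked for mention after its values were seen. Pax7, the factor that specifies satellite cells, went from 15700, 11694 and 12892 to 1254, 1645 and 1192 (-3.30 ± 0.16, adjusted p = 2.86e-08) and was intermediate in proliferating cells at 3330, 2668 and 2556. Myf5, expressed in committed progenitors, fell less, from 2225, 2801 and 2761 to 1049, 1171 and 1032 (-1.25 ± 0.13). Both factors were lower in every myotube library than in every fresh one, and both remained well above 0.

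Myod1 was nearly level between the ends of the series. It was at 5532, 6876 and 4938 in fresh cells, 20690, 21446 and 21302 in proliferating cells and 6955, 7315 and 6858 in myotubes (0.30 ± 0.12, adjusted p = 0.0353). Fresh library 2 overlapped the myotubes, and the call was lost when fresh library 1 or 3, any 1 myotube library or proliferating library 3 was left out, with an adjusted p of up to 0.146 without fresh library 3. Myog, the factor of terminal differentiation, was at 1257, 62 and 218 in fresh cells and 37811, 33789 and 39734 in myotubes (7.16 ± 0.91), with 8.30 without fresh library 1 and 6.14 without fresh library 2. The 3 fresh libraries thus differed 20-fold among themselves for Myog but all stayed below the myotubes.

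Mef2c, which acts with myogenin on contractile genes, was at 20, 9 and 21 in fresh cells, 33, 297 and 196 in proliferating cells and 29906, 26333 and 32818 in myotubes (10.79 ± 0.66). Tead4, a factor of the MCAT motif, was at 22, 0 and 2 and at 3133, 2965 and 3222, a change of 9.56 ± 0.86 that ranged from 8.55 without fresh library 2 to 10.81 without fresh library 1. Myf6, the fourth myogenic regulatory factor, went from 0, 16 and 10 to 1204, 1095 and 1422 (7.75 ± 0.84; 6.50 without fresh library 1 and 8.54 without fresh library 2). Mef2a, a relative of Mef2c, rose by 2.33 ± 0.25 and Mef2d, another of that family, fell by 0.77 ± 0.11 on the log2 scale. Id1, an inhibitor of MyoD dimers, was at 1318, 1439 and 1086 and at 1243, 1303 and 1103 (95% interval -0.34 to 0.20), so the stages overlapped. The E protein Tcf3, a partner of MyoD, overlapped as well (0.12, interval -0.17 to 0.41).

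Contractile genes rose almost without exception. Of 53 sarcomere genes 48 rose and 1 fell, with a median log2 change of 7.74, against 41.0% called higher and a median of 0.10 over all compared genes. The list holds the markers Myh8 and Mylpf, and 6 of its genes reached 10 in the myotube libraries alone. Its count is therefore no independent evidence of its direction. The summed counts of the listed sarcomere genes took 0.896% to 0.988% of the fresh, 1.06% to 1.96% of the proliferating and 11.1% to 13.0% of the myotube libraries. The embryonic heavy chain Myh3 was at 83, 23 and 32 in fresh cells and 323523, 296158 and 335321 in myotubes (12.94 ± 0.67). Acta1 was at 129, 122 and 126 and at 173090, 142430 and 181974 (10.35 ± 0.53), and the developmental actin Actc1 at 220, 25 and 274 and at 124677, 122868 and 133545 (10.09; 9.01 without fresh library 2 and 10.71 without fresh library 3). Titin, the giant spring of the sarcomere, rose from 4656, 1793 and 2147 to 310256, 351760 and 345687 (Ttn, 7.00 ± 0.34), and nebulin, which lines the thin filament, rose from 654, 606 and 517 to 117058, 124963 and 138746 (Neb, 7.74 ± 0.24). Every one of these genes had its 3 myotube libraries above its 3 fresh libraries.

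The myosin heavy chains differed in level in myotubes. Mean counts were 318334 for Myh3, 91362 for Myh1 and 52769 for Myh8, the order also found per length. The length covers all annotated exons of a gene. It was 11.8 kb for Myh8 against 6.06 kb for Myh3 and 6.35 kb for Myh1, so the value of Myh8 per length depends on the annotation. Counts per kilobase of exon averaged 52600 for Myh3, 14400 for the adult fast chain Myh1, 4480 for Myh8, 1040 for the slow chain Myh7, 151 for the fast chain Myh4 and 33.1 for Myh2. All 6 rose against fresh cells, and their levels in fresh cells were between 0.623 and 8.39 per kilobase. Myh1 went from 41, 62 and 57 to 89954, 81073 and 103059 (10.73 ± 0.60), and Myh4 from 22, 47 and 19 to 1001, 734 and 994 (5.01 ± 0.92). Of the 14 genes of developmental isoforms 13 rose and none fell (median 9.90, lowest -0.11), and of the 27 adult fibre genes 25 rose and none fell (median 6.85, lowest 0.04). The developmental list holds the markers Myh8 and Casq2. The adult list holds Mylpf and 2 genes that reached 10 in the myotube libraries alone. Embryonic and adult isoforms were thus both higher in the same cultures, and no test compared the lists.

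A few genes of the sarcomere list stayed level or fell. Flnc, the Z-disc and actin-binding filamin C, fell from 165110, 141244 and 142257 to 16942, 15388 and 18573 (-3.14 ± 0.20), and it was as low in proliferating cells, with a mean of 14165. Cryab, a small heat shock protein of the Z-disc, was at 10157, 8734 and 8549 and at 9366, 7453 and 9894 (interval -0.44 to 0.35), although proliferating cells were at 616, 1034 and 829. Tpm3, a tropomyosin also used outside muscle, overlapped between the stages (-0.07, interval -0.51 to 0.38). The chaperones of assembly divided: 9 of 12 rose and 3 fell. Smyd1, which works with the myosin chaperone Unc45b, rose from 37, 7 and 19 to 9718, 9486 and 9885 (9.05 ± 0.46; 8.46 without fresh library 2), while Hsp90aa1 fell by 1.26 ± 0.12 on the log2 scale and Bag3 by 4.26 ± 0.08.

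Genes of excitation-contraction coupling, which links the action potential to calcium release, rose in 26 of 28 cases and fell in 1 (median 4.23). The list holds the marker Casq2 and 3 genes that reached 10 in the myotube libraries alone. Cacna1s, the voltage sensor of the T-tubule, went from 0, 14 and 1 to 5581, 5387 and 6217 (10.85 ± 0.97; 10.03 without fresh library 1 and 11.98 without fresh library 2). Trdn, triadin of the triad junction, went from 4, 2 and 17 to 10363, 8055 and 10544 (10.53 ± 0.78; 11.27 without fresh library 3). The release channel Ryr1 rose by 3.47 ± 0.25 from 1388, 813 and 948, so it was already measurable in every fresh library. Ryr3, the channel of developing muscle, did not differ at 604, 874 and 523 and at 589, 641 and 580 (interval -0.66 to 0.44), but was at 24, 19 and 35 in proliferating cells. The gene that fell was Itpr1, the inositol trisphosphate receptor of non-muscle calcium release, by 3.84 ± 0.16 on the log2 scale. Atp2a2, the slow calcium pump, was at 12140, 11458 and 10880 and at 13303, 13366 and 15055 (0.27, adjusted p = 0.0219), a call lost without fresh library 3 (adjusted p = 0.0776) or without myotube library 3 (0.0903).

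At the neuromuscular junction 9 of 14 genes rose and 4 fell. The receptor subunits did not move together. Chrng and Chrnd, subunits of the embryonic receptor, went from 2, 16 and 14 to 9810, 8773 and 11148 (10.07 ± 0.57; 9.27 without fresh library 1) and from 37, 0 and 1 to 5153, 4837 and 6058 (10.30 ± 1.03; 9.25 without fresh library 2, 11.88 without fresh library 1). Chrna1 rose from 617, 563 and 588 to 48605, 44360 and 52038 (6.35 ± 0.10). Chrne, the adult subunit, was at 15, 31 and 34 and at 73, 38 and 77 and was not called (adjusted p = 0.0585). Chrnb1 fell from 5279, 5911 and 5600 to 2857, 2907 and 3338 (-0.89 ± 0.09), with no overlap.

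Of 26 genes of fusion and adhesion 16 rose and 8 fell (median 1.67). Tmem8c, the fusogen myomaker, was at 159, 4 and 27 in fresh and 11961, 10853 and 13466 in myotube libraries (8.74 ± 1.00; 9.99 without fresh library 1 and 7.49 without fresh library 2). Its partner myomixer, listed as Gm7325, was at 22, 2 and 4 and at 951, 891 and 1068 (7.11 ± 0.82; 7.97 without fresh library 1 and 6.50 without fresh library 2). Cav3, the muscle caveolin, rose by 9.85 ± 1.11 from 0, 31 and 23 to 8794, 6696 and 10326 (8.26 without fresh library 1, 10.76 without fresh library 2 and 10.55 without fresh library 3). Cdh15, the M-cadherin of satellite cells and myoblasts, was at 4543, 3787 and 4057 and at 4459, 4865 and 4675 (interval -0.36 to 0.72), so its libraries overlapped. Stab2, a stabilin that has been linked to fusion, fell from 329, 507 and 523 to 22, 24 and 14 (-4.44 ± 0.46).

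In the dystrophin complex and costamere, which tie the cytoskeleton to the matrix, 11 of 25 genes rose, 5 fell and 9 were not called. Dtna, a dystrobrevin, went from 52, 35 and 46 to 3952, 3742 and 4027 (6.45 ± 0.17). Itga7, the laminin receptor of muscle, was at 7948, 5207 and 5888 and at 6866, 5979 and 7295 (interval -0.28 to 0.47). The spectrin Sptb was level too, at 525, 514 and 464 and at 486, 521 and 565.

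**Figure D3:**
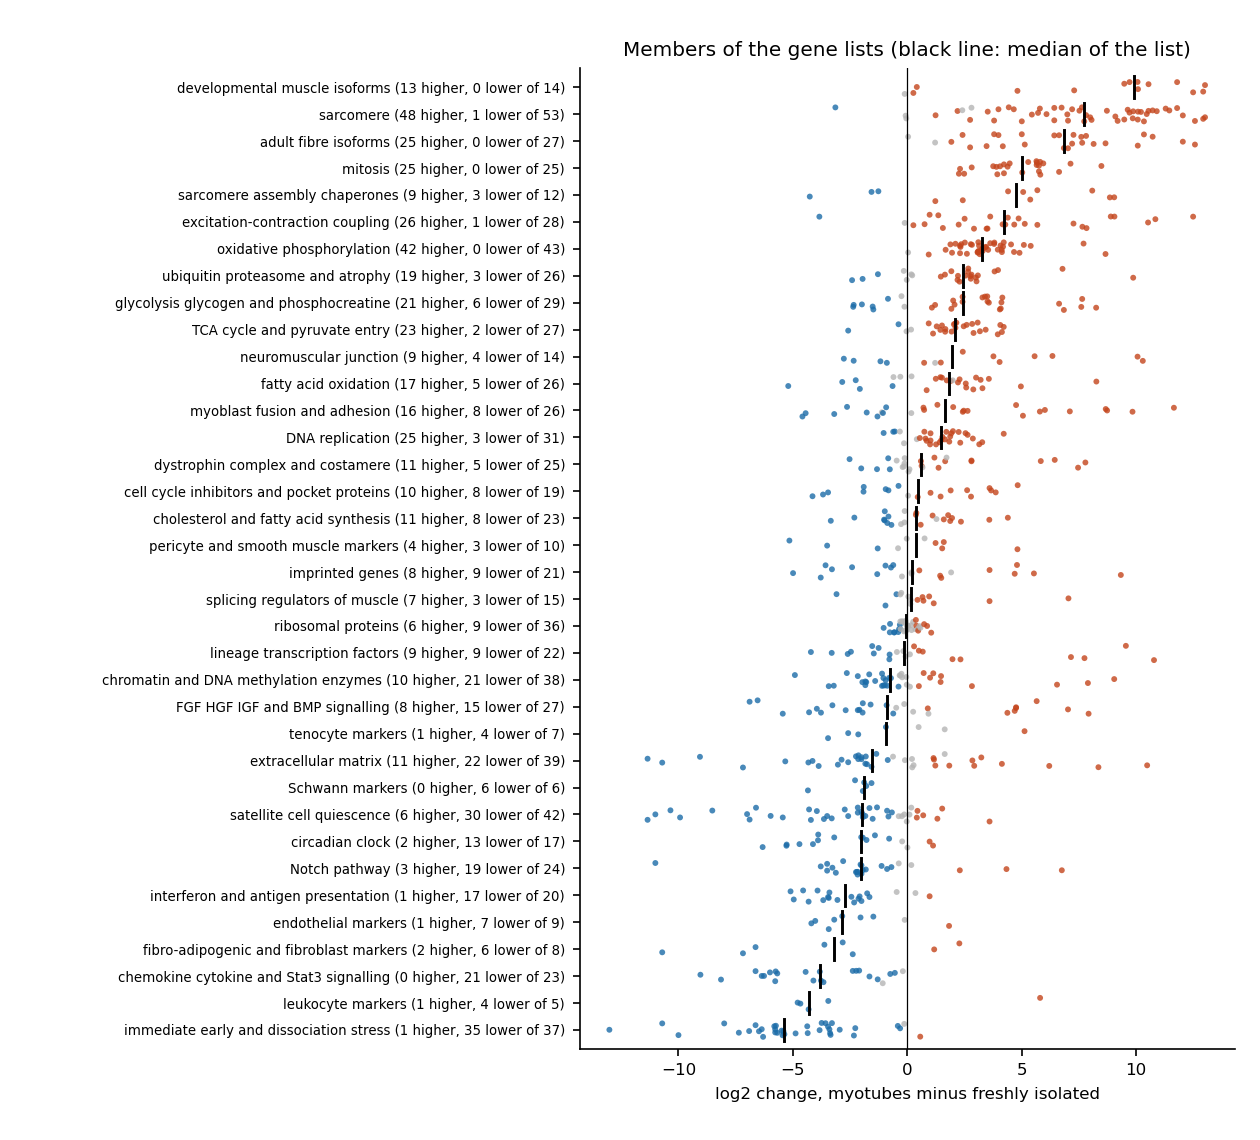
Log2 change from freshly isolated cells to myotubes (horizontal axis) of the compared genes of 36 gene lists (rows, sorted by median), 1 point per gene, red for higher, blue for lower and grey for not called, with a black line at the list's median. The medians run from 9.90 for the developmental muscle isoforms to -5.37 for immediate early and dissociation stress genes, and ribosomal proteins lie near 0.

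Energy metabolism moved with the contractile genes in the plot of the gene lists. Of 43 nuclear genes of oxidative phosphorylation 42 rose and none fell (median 3.27, lowest 0.04), and their listed genes took 0.161% to 0.203% of the fresh and 1.19% to 1.43% of the myotube counts. Subunits encoded in mitochondrial DNA are not analysed here, since all 37 genes of that genome were at 0 throughout the table. Ndufs4, a subunit of complex I, went from 115, 137 and 143 to 5749, 4472 and 6804 (5.40 ± 0.16). Cox8b, a muscle isoform of complex IV, went from 17, 5 and 9 to 2351, 1426 and 2928 (7.71 ± 0.49) and was still at 5, 10 and 15 in proliferating cells. Cox7a1, another muscle isoform, was the gene not called: it stood at 246, 176 and 215 in fresh cells, at 8, 13 and 10 in proliferating cells and at 236, 127 and 334 in myotubes.

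The TCA cycle list had 23 of 27 genes higher and 2 lower (median 2.09), with 1 lower when fresh library 2, myotube library 1 or myotube library 2 was left out. Ppargc1a, the coactivator of mitochondrial biogenesis, went from 31, 41 and 29 to 602, 615 and 698 (4.22 ± 0.19), and Sdhb, a subunit shared with the respiratory chain, from 285, 305 and 320 to 5474, 4630 and 6043 (4.14 ± 0.11). Ogdh, of the oxoglutarate dehydrogenase complex, overlapped at 2848, 2175 and 2433 and at 2652, 2825 and 2861. In fatty acid oxidation 17 of 26 genes rose and 5 fell (median 1.82). The carrier Fabp3 went from 0, 18 and 27 to 2804, 2167 and 2590 (8.27 ± 1.14; 6.76 without fresh library 1, 8.89 without fresh library 2 and 9.17 without fresh library 3), and Cpt2, of the carnitine shuttle, from 68, 47 and 37 to 554, 592 and 636 (3.57 ± 0.21).

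Of 29 genes of glycolysis, glycogen and phosphocreatine 21 rose and 6 fell (median 2.42). The muscle enolase Eno3 went from 155, 285 and 304 to 27040, 23515 and 33114 (6.85 ± 0.23), and the general enolase Eno1 rose as well, from 889, 824 and 819 to 13428, 13599 and 15027 (4.05 ± 0.08). The muscle phosphoglycerate mutase Pgam2 went from 44, 21 and 27 to 6366, 5141 and 6873 (7.65 ± 0.44), and the general form Pgam1 overlapped at 301, 246 and 199 and at 192, 294 and 205. Ckm, the muscle creatine kinase, went from 24, 27 and 73 to 3891, 2892 and 4579 (6.64 ± 0.62). Hexokinase 2, which starts glycolysis, went the other way, from 7504, 4352 and 4364 to 952, 938 and 1178 (Hk2, -2.36 ± 0.21). Glycogen phosphorylase Pygm was present at both ends, at 1253, 1302 and 1429 and at 4969, 4079 and 6347 (1.93 ± 0.33), but at 81, 204 and 222 in proliferating cells.

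Sterol and fatty acid synthesis had 11 of 23 genes higher and 8 lower, near the shares over all genes tested. Fdft1, the squalene synthase, rose from 92, 111 and 211 to 1474, 1569 and 1672 (3.59 ± 0.27). The regulator Srebf1 overlapped between the stages (-0.12, interval -0.47 to 0.23).

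The proteasome and atrophy list had 19 of 26 genes higher and 3 lower (median 2.42). Psmb5, a catalytic subunit, went from 74, 106 and 61 to 1307, 1004 and 1468 (3.97 ± 0.21), and the muscle ubiquitin ligase Trim63 from 0, 1 and 6 to 2453, 1900 and 2509 (9.88 ± 0.91; 9.25 without fresh library 1 and 10.65 without fresh library 3). The other atrophy ligase, Fbxo32, was not called, at 2272, 1977 and 1705 and at 1767, 1620 and 1978. Ribosomal proteins were near level: 6 of 36 rose and 9 fell, a called share below the 79.4% over all genes, with a median of -0.05. The count of risers was 10 without myotube library 2, and 14 fell without fresh library 1, which was the lowest fresh library for 25 of these genes.

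Genes of the cell cycle were higher in the myotube cultures than in fresh cells. All 25 genes of the mitosis list rose (median 5.03) and 25 of 31 replication genes rose, with 3 lower (median 1.49). In the mitosis list 1 gene reached 10 in the myotube libraries alone, which fixed its direction. Mki67, a protein of cycling cells, was at 471, 66 and 163 in fresh cells, 23855, 25457 and 22495 in proliferating cells and 9247, 13203 and 7550 in myotubes (5.81 ± 0.54; 6.54 without fresh library 1 and 5.13 without fresh library 2). Cdk1, the mitotic kinase, was at 0, 1 and 13, at 2910, 3351 and 3016 and at 1000, 1325 and 979 in the same order of stages (8.49 ± 0.74; 7.69 without fresh library 1 and 9.59 without fresh library 3). For both genes all 3 myotube libraries lay between the fresh and the proliferating ones. The listed mitosis genes took 0.00715% to 0.00834% of the fresh, 0.571% to 0.617% of the proliferating and 0.147% to 0.253% of the myotube counts, with myotube library 2 the highest of its stage. The part of dividing unfused cells in these values was not tested. Cdt1, which licenses origins of replication, overlapped between the ends (-0.32, interval -0.80 to 0.16).

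Of 19 inhibitors of the cell cycle 10 rose and 8 fell, beside 41.0% higher and 38.3% lower over all genes tested. Cdkn1c, the p57 inhibitor of cyclin-dependent kinases, was at 5556, 334 and 850 in fresh cells, 25, 106 and 83 in proliferating cells and 12852, 14582 and 14915 in myotubes (3.60 ± 0.86). Fresh library 1 was far above the others for this gene: the change was 4.72 without it and 2.70 without fresh library 2. Cdkn1a, the p21 inhibitor, rose from 2534, 2560 and 2511 to 17944, 14798 and 20494 (2.79 ± 0.26), and Rb1, the retinoblastoma protein, from 590, 845 and 806 to 4193, 4640 and 4813 (2.62 ± 0.23). Btg1, an antiproliferative factor of resting cells, fell from 13999, 17540 and 15095 to 828, 947 and 862 (-4.14 ± 0.14), with 939, 708 and 639 in proliferating cells, and Cdkn1b, the p27 inhibitor, fell by 0.82 ± 0.08 on the log2 scale. Each of these had its libraries of the stages apart.

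Genes of the quiescence list fell in 30 of 42 cases and rose in 6 (median -1.98). The list includes Tnxb, Rbpjl and Pax7, whose difference was known when it was drawn up. Of its genes, 2 reached 10 in the fresh libraries alone. Its count is therefore no independent evidence of its direction. Calcr, which keeps satellite cells at rest, was at 1935, 2711 and 2558 in fresh cells, at 5, 3 and 3 in proliferating cells and at 0, 1 and 2 in myotubes (-10.35 ± 0.43). Chodl, a lectin of satellite cells, was at 9332, 12358 and 12157 in fresh cells, at 3, 1 and 0 in proliferating cells and at 13, 8 and 11 in myotubes (-9.93 ± 0.45), and Cd34, a surface antigen used to sort them, at 2253, 3447 and 3825 and at 6, 16 and 4 (-8.52 ± 0.43). Sdc4, a syndecan, fell from 87979, 65072 and 59578 to 701, 668 and 782 (-6.61 ± 0.15), with 2651, 2303 and 2083 in proliferating cells. Met, the receptor of hepatocyte growth factor, did not differ (-0.13, interval -0.48 to 0.22), with 1553, 2220 and 2237 at the start and 1701, 2147 and 1621 at the end.

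In the Notch pathway, a list that again holds Rbpjl, 19 of 24 genes fell and 3 rose (median -2.02). The receptors Notch1, Notch2 and Notch3 fell by 2.20 ± 0.17, 3.12 ± 0.10 and 3.50 ± 0.22 on the log2 scale, Notch3 from 23211, 21968 and 21732 to 1889, 2411 and 1670 with 1070, 1971 and 1980 in proliferating cells. Among the targets, Heyl fell from 5645, 6141 and 6428 to 1552, 1596 and 1406 (-2.00 ± 0.53), and it had been lower still in proliferating cells, at a mean of 252. Hes1 was not called, at 224, 403 and 373 and at 232, 290 and 229. The genes that rose were Jag2, a ligand (2.30 ± 0.22), Lfng, a glycosyltransferase that modifies the receptors, and Hes6, which opposes Hes1. Hes6 was at 81, 90 and 142 in fresh, 7791, 9029 and 10633 in proliferating and 11470, 10738 and 11025 in myotube libraries (6.76 ± 0.19), and Lfng at 0, 25 and 19 and at 136, 266 and 117 (4.34 ± 1.01; 2.84 without fresh library 1, 5.19 without fresh library 2 and 5.00 without fresh library 3). The ligand Dll1 overlapped, at 1105, 723 and 782 and at 898, 1078 and 935.

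Immediate early and dissociation stress genes had the lowest median of all lists, at -5.37, with 35 of 37 lower. The single riser, Gadd45g, was not called without fresh library 2 or 3 or without any 1 myotube library. Fosb, a subunit of AP-1, stood at 92566, 68836 and 65159 in fresh cells, at 18, 9 and 9 in proliferating cells and at 8, 9 and 7 in myotubes (-13.02 ± 0.26, adjusted p = 1.7e-10). This was the largest fall among the ranked genes. Fos stood at 32725, 27388 and 27292 in fresh cells and at 116, 112 and 110 in myotubes (-8.00 ± 0.15), with 34, 34 and 24 in proliferating cells. Egr1 stood at 70758, 70293 and 72952 and at 730, 673 and 750 (-6.63 ± 0.09), with 546, 491 and 463 between. The inducible heat shock genes Hspa1a and Hspa1b, near-identical copies between which reads cannot be assigned safely, were at 73183, 73153 and 70566 and at 116524, 101266 and 94611 in fresh cells, and at 45, 30 and 55 and at 107, 89 and 106 in myotubes. In proliferating cells they were at 24, 23 and 26 and at 113, 87 and 95. The constitutive member Hspa8 changed little by comparison, from 32416, 38406 and 31996 to 24994, 26644 and 25730 (-0.41 ± 0.11). Together the listed genes took 2.94% to 3.45% of the fresh counts, 0.317% to 0.347% of the proliferating and 0.251% to 0.269% of the myotube counts. How much of this came with the isolation of the cells cannot be told apart from the stage, since only fresh cells were taken straight from dissociated muscle.

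**Figure D4:**
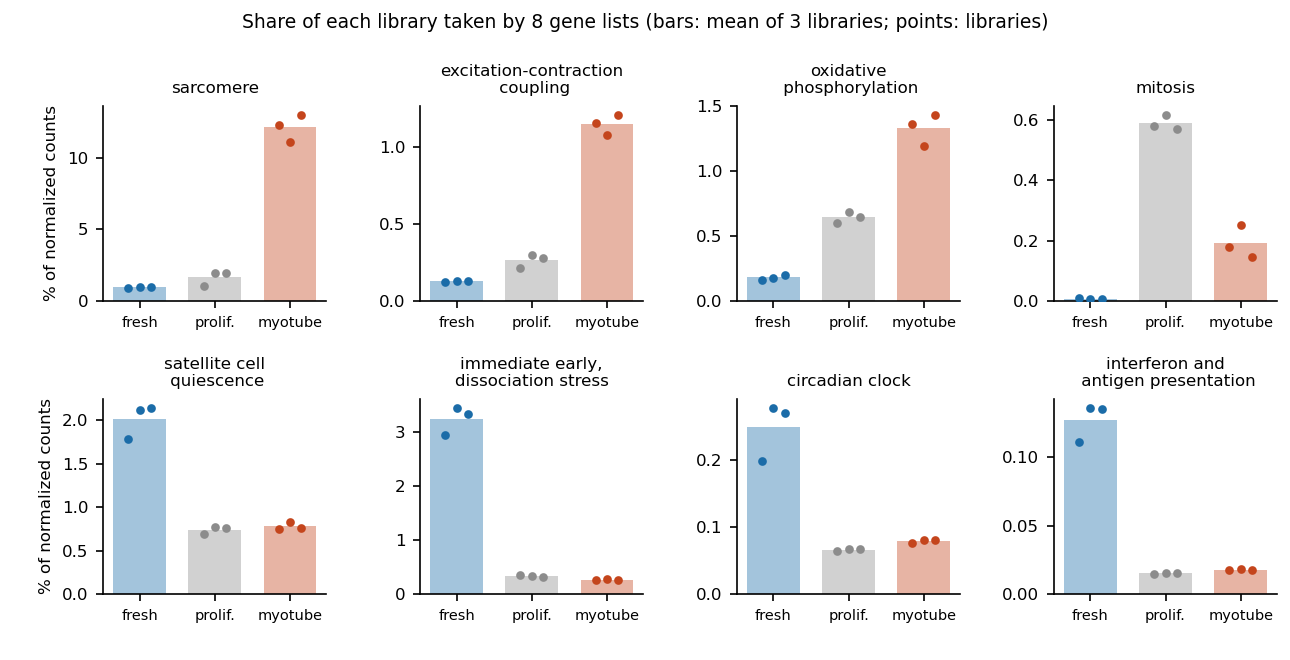
Percent of all normalized counts of a library (vertical axes, from 0) taken by 8 gene lists in the 3 stages, with bars for the mean of 3 libraries and points for the libraries, over all listed genes in the table. Sarcomere genes rise to 11.1% to 13.0% in myotubes, mitosis genes peak in proliferating cells, and immediate early genes are at 2.94% to 3.45% in fresh and at most 0.347% in cultured cells.

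Cytokine and Stat3 signalling fell too, in 21 of 23 genes with none higher (median -3.82, highest -0.19). Cxcl1, a neutrophil chemokine, stood at 3745, 5850 and 6682 in fresh, 3, 8 and 3 in proliferating and 11, 13 and 5 in myotube libraries (-9.04 ± 0.43), and Cxcl2, its relative, at 270, 290 and 284 in fresh cells and listed at 0 in all 6 cultured libraries. Socs3, the feedback inhibitor of Stat3, fell from 7323, 7146 and 7341 to 91, 93 and 80 (-6.36 ± 0.12), with 58, 61 and 57 in proliferating cells, and Stat3 itself from 28719, 30128 and 25388 to 1163, 1396 and 1328 (-4.44 ± 0.12). Interferon and antigen presentation genes fell in 17 of 20 cases and rose in 1, or in 2 without fresh library 1. H2-D1, a class I antigen, went from 7850, 6968 and 6868 to 233, 218 and 242 (-4.96 ± 0.09), while its light chain B2m, at 1216, 2813 and 2240 and at 1373, 1485 and 1440, overlapped and was not called.

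Clock genes fell in 13 of 17 cases and rose in 2 (median -2.01). Per1, a repressor of the clock, was at 9606, 8146 and 9828 in fresh cells, 257, 302 and 276 in proliferating cells and 252, 221 and 239 in myotubes (-5.27 ± 0.11). Bhlhe40 went from 7031, 6551 and 7670 to 196, 146 and 205 (-5.28 ± 0.14), with 127, 129 and 136 in proliferating cells. Arntl, the activator of the loop, was at 209, 450 and 375 and at 331, 317 and 342 (interval -0.54 to 0.55). The labels give no time of day, and its part in these values was not tested.

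Of 39 matrix genes 22 fell and 11 rose (median -1.56). The list holds the marker Tnxb and 3 genes that reached 10 in the fresh libraries alone. Prelp, a leucine-rich matrix protein, stood at 6275, 7188 and 7322 in fresh, 1, 0 and 0 in proliferating and 14, 11 and 11 in myotube libraries (-9.06 ± 0.32), and the basement membrane chain Lama2 fell from 13936, 17511 and 17197 to 3878, 4250 and 3985 (-2.00 ± 0.11). Spp1, the secreted osteopontin, went the other way, from 26, 1 and 2 to 8819, 6144 and 8894 (10.49 ± 0.76; 11.64 without fresh library 1, 9.77 without fresh library 2), as did Postn, periostin, from 13, 4 and 7 to 2791, 2788 and 2554 (8.36 ± 0.39). Fresh library 1 was the highest fresh library for 28 of the 39 genes. Osteoglycin, Ogn, was present at both ends, at 2072, 4009 and 3585 and at 2984, 2779 and 2946, but at 106, 191 and 155 in proliferating cells.

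Among growth factors and their receptors 15 of 27 genes fell and 8 rose. The list holds 3 genes that reached 10 in the myotube libraries alone. The ligands Bmp6 and Bmp2 fell from 4388, 3680 and 3715 to 40, 41 and 20 (-6.89 ± 0.29) and from 793, 1164 and 1018 to 12, 17 and 4 (-6.54 ± 0.46), and in proliferating cells they were at 14, 15 and 10 and at 3, 5 and 4. Igf2, which promotes differentiation, rose from 2730, 3888 and 2476 to 78901, 78023 and 74892 (4.70 ± 0.25), and Mstn, myostatin, the inhibitor of muscle growth, from 7, 9 and 4 to 988, 895 and 1003 (7.03 ± 0.38). Igfbp2 was listed at 0 in all fresh libraries and stood at 241, 255 and 233 in myotubes, close to its 277, 253 and 293 in proliferating cells. Igfbp5, at 8981, 10114 and 8123 and at 6418, 6530 and 6461, was lower in every myotube library but not called (adjusted p = 0.0732).

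Of 21 imprinted genes, expressed from 1 parental allele, 8 rose and 9 fell, near the shares over all genes tested. H19, a non-coding RNA of the Igf2 locus, was at 516, 550 and 433 in fresh cells, 79813, 102182 and 96195 in proliferating cells and 343443, 293759 and 333303 in myotubes (9.34 ± 0.13). Meg3, the non-coding RNA of the Dlk1 locus, moved in the opposite direction, from 29584, 27850 and 23912 to 803, 1066 and 721 (-4.99 ± 0.19), and was at 57, 83 and 88 in proliferating cells. Plagl1 overlapped between the ends (0.19, interval -0.19 to 0.58).

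Chromatin and DNA methylation enzymes fell in 21 of 38 cases and rose in 10 (median -0.75). Kdm6b, a demethylase of histone H3 lysine 27, went from 31926, 29153 and 29713 to 989, 936 and 1087 (-4.91 ± 0.09), already reached in proliferating cells at 1167, 1397 and 1302. Hmga2, a chromatin protein of embryonic and dividing cells, was at 2, 0 and 0 in fresh cells, 5033, 2380 and 2813 in proliferating cells and 412, 433 and 225 in myotubes (7.90 ± 0.47). Hdac9, a class II deacetylase that binds MEF2, was at 2, 3 and 0 and at 209, 224 and 209 (6.55 ± 0.62; 5.95 without fresh library 3). Smarca4, the ATPase of SWI/SNF remodelling, overlapped at 5811, 4051 and 4211 and at 4541, 4918 and 4115.

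Among 15 splicing regulators 7 rose and 3 fell; 5 fell without fresh library 1, and 1 fell without myotube library 1 or 2. Rbfox1, which promotes muscle exons, went from 0, 22 and 11 to 810, 762 and 1039 (7.05 ± 0.91; 5.70 without fresh library 1 and 7.96 without fresh library 2). Ptbp1, which represses them, fell from 6530, 8128 and 7359 to 840, 941 and 803 (-3.09 ± 0.15), and Rbm20, a regulator of titin splicing, was level (0.05, interval -0.23 to 0.33).

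The steadiest abundant genes give the scale of the spread. Hdlbp, an RNA-binding protein, was at 14772, 16603 and 15324 and at 15763, 15791 and 15602 (0.02, interval -0.17 to 0.21), and Hnrnpc, a splicing protein, at 5987, 6549 and 5823 and at 5996, 6314 and 6070 (0.00, interval -0.18 to 0.19). Both overlapped between the stages.

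The proliferating libraries show how a change was divided between the step before and the step after them. The second step also runs between libraries with opposite Xist and Y-linked values, so sex cannot be told apart from it. Of the 3090 genes that rose at least 4-fold, 2105 (68.1%) had the larger part of their log2 change between fresh and proliferating cells, and of the 3122 that fell at least 4-fold, 2702 (86.5%). In 608 of these rises and 994 of these falls the second step went the other way, so proliferating cells lay beyond the myotube level. In 184 rises and 38 falls the first step went the other way. Each step shares the proliferating libraries with the other, so the shares are a description. H19, Tead4, Spp1 and Chrnd made most of their rise before the proliferating stage, with log2 steps of 7.53, 7.95, 10.62 and 9.05 before it and 1.81, 1.62, -0.13 and 1.25 after it. Myh8, Myh1, Mef2c, Mstn and Ckm made most of theirs after it, with steps of 3.70, 3.41, 2.92, 0.36 and 0.22 before it and 9.32, 7.32, 7.88, 6.67 and 6.42 after it.

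Markers of other cell types of muscle differed by list: the summed endothelial, leukocyte, fibroblast and Schwann markers were lower in every myotube library than in every fresh one, and the summed pericyte and tenocyte markers were higher. In myotubes the pericyte sum came mostly from Des and Acta2, and the tenocyte sum mostly from Scx. Of the endothelial markers 9 of 12 were compared, 7 fell and 1 rose, and their listed genes summed to 0.00281% to 0.00403% of the fresh and 0.00128% to 0.00147% of the myotube counts. Pecam1 was at 59, 155 and 128 and at 8, 15 and 10. Of the leukocyte markers 5 of 14 were compared, 4 fell and 1 rose, with sums of 0.00336% to 0.00448% and 0.0013% to 0.00134%. Ptprc, which defines leukocytes, did not exceed 14 in any of the 6 libraries. Cd68, a lysosomal protein of macrophages, was at 549, 629 and 621 and at 22, 21 and 25 (-4.67 ± 0.21), and Cd79a, of the B cell receptor, at 150, 163 and 165 and at 6, 6 and 3 (-4.79 ± 0.35). Itgam went the other way, at 2, 6 and 2 and at 223, 213 and 229. Fibroblast markers, of which 8 of 13 were compared, fell in 6 cases and rose in 2, or in 1 without myotube library 3, with sums of 0.111% to 0.135% and 0.0291% to 0.0294%, mostly from Gsn at 25577, 19260 and 22111 in fresh cells. Of the compared genes, 5 endothelial, 3 leukocyte, 5 fibroblast, 2 Schwann, 1 pericyte and 1 tenocyte marker reached 10 in the fresh libraries alone. In the myotube libraries alone 1 leukocyte and 1 fibroblast marker did. The minimum fixed the direction of these genes, so the counts of these lists are no independent evidence of theirs.

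Pdgfra, which defines fibro-adipogenic cells, was at 4, 5 and 9 and at 14, 12 and 17. Other genes of its list were abundant in fresh cells: Dpt was at 2449, 3554 and 3249 and at 1, 0 and 2 (-10.71 ± 0.43), and Dcn, the matrix protein decorin, at 405, 840 and 1006 and at 1, 6 and 7 (-7.18 ± 0.63; -6.55 without myotube library 1). Cxcl14, a chemokine, was at 113, 63 and 131 in fresh cells and listed at 0 in all 6 cultured libraries. All 6 compared Schwann markers fell, with sums of 0.0107% to 0.0133% and 0.00232% to 0.00386%, although Sox10 was not called without myotube library 1. Pericyte markers rose in 4 and fell in 3 of 10 cases, with sums of 0.248% to 0.268% and 0.667% to 0.724%. Acta2, a smooth muscle actin also made by early myotubes, was at 3144, 1567 and 2029 and at 61639, 60374 and 60888. Des, also in the sarcomere list, was at 36699, 28357 and 27708 and at 74698, 61850 and 82760. Kcnj8, Notch3 and Cspg4 fell, and Pdgfrb, Rgs5 and Myh11 were not called. Tenocyte markers rose in 1 case, or in 2 without fresh library 1, and fell in 4 of 7, with sums of 0.00204% to 0.00259% and 0.0167% to 0.0207%, and Scx, which defines tendon progenitors, went from 118, 108 and 92 to 4061, 3104 and 4071 (5.13 ± 0.14), while Tnmd did not exceed 6. No erythroid marker passed the minimum on an autosome. The part of such cells in the falls of matrix, cytokine and interferon genes was not tested.

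**Figure D5:**
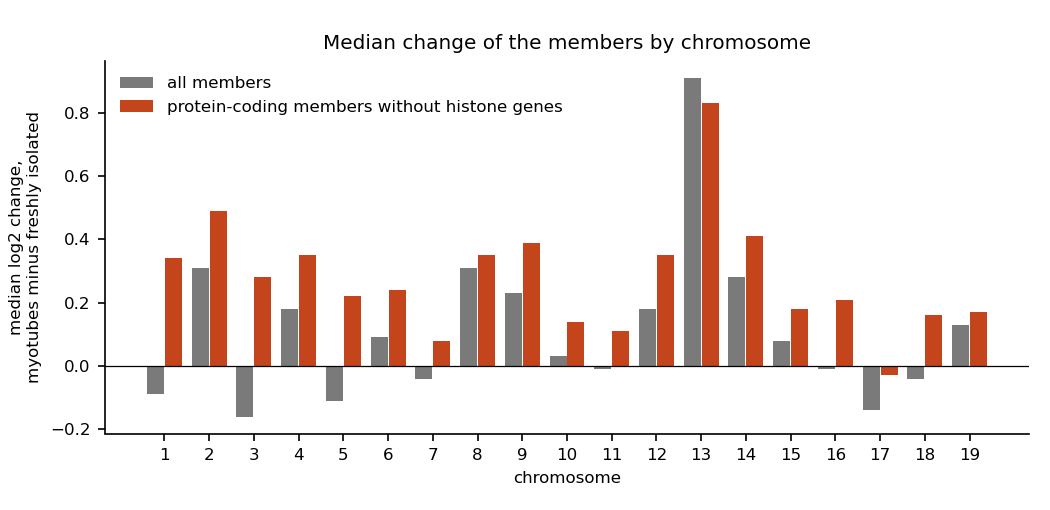
Median log2 change from freshly isolated cells to myotubes (vertical axis) of the compared genes on each autosome (horizontal axis), for all genes (grey) and for protein-coding genes without histone genes (red). Chromosome 13 stands at 0.91 and 0.83, above every other autosome, whose red bars run from -0.03 to 0.49.

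By position, chromosome 13 stood apart in the plot of chromosome medians, a pattern noticed after the values were seen. Of its 578 compared genes 55.4% rose and 26.3% fell, against 40.4% and 39.0% of the 15430 genes on the other autosomes. Part of it is the histone cluster: all 43 histone genes compared on this chromosome rose, with a median of 5.57, for example Hist1h1c at a mean of 211 in fresh and 4696 in myotube libraries. Without histone genes, 256 of 461 protein-coding genes of chromosome 13 rose (55.5%) and 121 fell (26.2%), with a median of 0.83, against 45.1%, 36.4% and 0.25 on the other autosomes. The median of these 461 genes against the fresh mean was 0.79 to 0.84 in each myotube library and 0.59 to 0.62 in each proliferating library, so no single library carries it. It differed along the chromosome, from -0.07 for 17 genes in the first 10 Mb to 1.82 for 55 genes between 60 and 70 Mb. What underlies it was not tested.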

How the data were processed

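RNA of mouse satellite cells was sequenced after depletion of ribosomal RNA, per the labels' protocols. The submitters' processing notes name STAR 2.4.0a, featureCounts 1.4.5-p1 and the build mm10, also called GRCm38. The deposited values were used as a score: whole numbers per gene that differ from raw counts by a scaling which the authors applied to each library. The scaling method was not given in the sources used here. Column names starting with D and P match the myotube (differentiating) and proliferating stages, so those starting with Q were read as freshly isolated, the stage that was left. Reads per library were estimated from the spacing of low values.

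Counts of 10 or more in at least 3 of the 6 libraries were required. The 3 stages were fitted on log2(value + 1) in 1 model over 9 libraries with limma 3.58.1 in R 4.3.3, with a mean-variance trend. The fit and its Benjamini-Hochberg adjustment covered 16631 genes, and a gene was called at an adjusted p below 0.05. The method was tested on simulated data of 16631 genes, with changes set only in genes above a minimum mean. It found 66% of 100 changes of 2-fold and 96% of 100 changes of 4-fold, and 9 unchanged genes were called. A gene that is not called may therefore still differ by 2-fold. Positions and exon lengths come from GENCODE vM21, promoters from RefSeq. Tables and figures were made in Python with pandas and matplotlib.

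The genes, markers and 37 lists were chosen with earlier results of these data known. Genes were named by a rule: the 5 markers, 10 landmarks, the 10 largest rises and falls with a mean of 100 or more in the higher stage and libraries apart, from every list up to 4 genes, those that changed most, and up to 2 that changed least, and 8 steady genes. Other list members named in the text, and the histone and sex-linked genes, were chosen after their values were seen. Alternatives were another pseudocount, filter, scaling, spread model and set of libraries, a replicate block and leaving out each library. Some genes that the rule would name are not reported here.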

Additional observations from a re-analysis of the deposited data

How the results depend on the processing

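All 5 counts over the compared genes (higher, lower, at least 4-fold higher, at least 4-fold lower, within 1.5-fold) stayed within 1.5 times their value in 20 alternatives, except that 2008 genes were at least 4-fold lower, in place of 3122, when 50 or more in at least 3 libraries was required, which tests fewer genes. Leaving out 1 library gave 6175 to 6858 genes higher, 5819 to 6444 lower, 2946 to 3181 at least 4-fold higher, 3084 to 3158 at least 4-fold lower and 847 to 1277 within 1.5-fold. No called gene changed direction in any of these fits. With a replicate block 6527 genes were higher and 6110 lower. Same-numbered libraries of different stages had correlations of their deviations between -0.037 and 0.031 and were not treated as paired. These correlations cannot show whether a fresh and a proliferating library came from the same animal. Other scalings moved the median log2 change by at most 0.026. For median-of-ratios scaling the library factors were 0.998 to 1, so that alternative nearly repeated the main fit. Each scaling brings the libraries to a common level. These fits therefore cannot show whether the total RNA of a cell differed between the stages. Of 170 called genes named by the rule, 46 moved by over 1.5-fold and 7 lost their call when 1 library was left out, among them Atp2a2, Ccng2, Cxcl12, Hspe1, Myod1 and Sox10. Each stage has 3 libraries, fitted changes depend on the added 1 where a stage is near 0, and sex and isolation cannot be told apart from the stage.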
